A study of Mus musculus with 5 samples.

Results

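The genes described here were the neurotransmitter receptor genes of the mouse, examined for chromatin sites occupied by the long non-coding RNA *Paupar*. They were chosen by symbol: protein-coding genes of the NCBIM37 (mm9) annotation named Gria, Grik, Grin1, Grin2, Grin3, Grm, Gabr, Glra, Chrn, Chrm, Htr or Drd with an ending of a digit or a digit and a letter. The rule took 84 of 22380 protein-coding genes. Of these, 4 (*Htra1*, *Htra2*, *Htra3* and *Htra4*) encode HtrA serine peptidases, which are not receptors, so all counts below are over the other 80 genes. *Paupar* is transcribed next to *Pax6*, a transcription factor gene of the developing nervous system. Its chromatin contacts had been captured by CHART-Seq in N2A cells, an established mouse neuroblastoma line. In CHART-Seq, biotinylated DNA oligonucleotides complementary to the RNA pull down the RNA with its chromatin, and the DNA released by RNase H is sequenced. There were 2 *Paupar* pull-downs with 4 capture oligonucleotides, 2 control pull-downs with an oligonucleotide of *E. coli* LacZ sequence, and 1 input DNA library. All came from N2A cells with no treatment or genetic change named in the labels, so they are repeat pull-downs of 1 cell line.

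The data were a single list of 2849 peaks, each with a position and the authors' score, covering 2122386 bp in all. The list holds no value for any single library, so no peak could be compared between the *Paupar* and LacZ samples, no spread between replicates could be given, and read depth was unknown. Scores ran from 5.34 to 305.37. A gene was counted as having a peak where a peak midpoint lay in its regulatory domain. The domain had a fixed core, 5 kb before and 1 kb after the gene start, and reached outward on both sides to the core of the next gene, no farther than 1 Mb from the start. Intervals given below cover counting error only (95%, Wilson for shares and exact Poisson for counts per Mb). Neither expression nor cell identity can be read from a peak list, so whether a given receptor is made in N2A cells was not examined.

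Fast synaptic signals pass through ligand-gated ion channels, which are assembled from several subunits: AMPA, kainate and NMDA receptors for glutamate, GABA-A receptors for GABA, glycine receptors, nicotinic receptors for acetylcholine and the 5-HT3 receptors for serotonin. Slower, modulatory signals pass through receptors coupled to G proteins, among them the metabotropic glutamate, muscarinic, dopamine and most serotonin receptors. Many of the subunit genes are long, lie in gene-poor neighbourhoods or sit in clusters with their relatives.

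*Paupar* peaks lay in the domains of 16 of the 80 receptor genes (20.0%, 12.7 to 30.0%). Over all protein-coding genes, 3676 of 22380 had a peak, or 16.4%, a value within the interval of the receptor genes. Among them were *Gria1*, *Grin2b*, *Grin2c*, *Grin3a*, *Chrna4*, *Chrna7*, *Chrm1*, *Chrm4*, *Htr2b*, *Htr5b*, *Htr6*, *Htr7*, *Drd1a*, *Drd3* and *Drd5*. Together they held 18 peaks: 14 genes had 1 peak, *Drd1a* and *Drd5* had 2 each, and no receptor gene had 3 or more. The remaining 64 genes had none. Receptors coupled to G proteins had a peak in 10 of 30 genes (33.3%, 19.2 to 51.2%), and ligand-gated channel subunits in 6 of 50 (12.0%, 5.62 to 23.8%). These intervals overlap. The median domain was longer in the first class, at 351 kb against 210 kb. In peaks per Mb the classes had 0.714 (0.369 to 1.25) and 0.261 (0.0958 to 0.568), and these intervals overlap too. The difference between both classes was not tested.

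**Figure D1:**
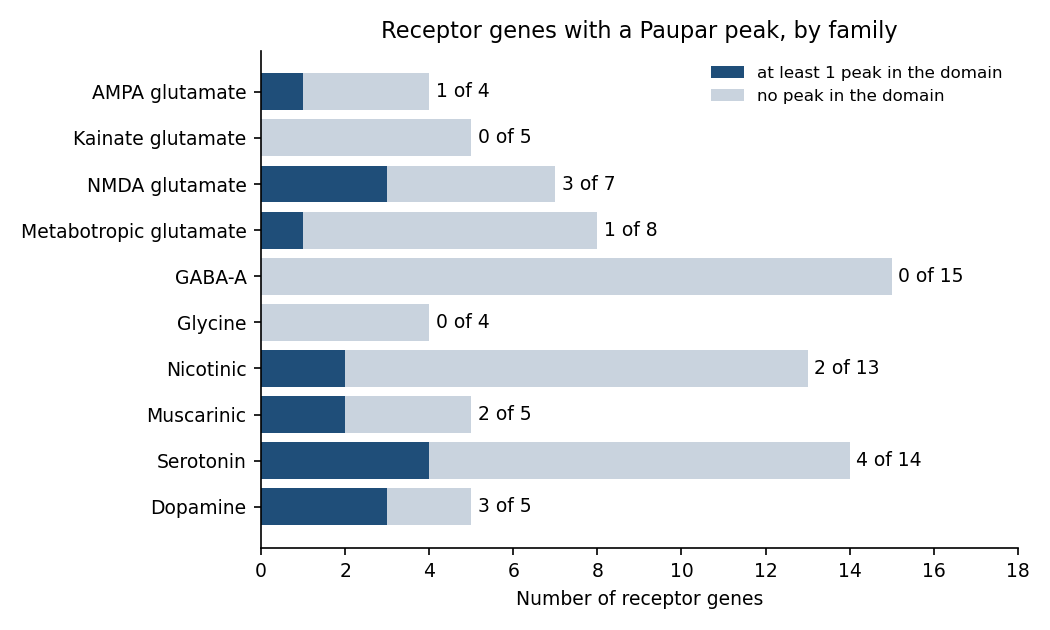
Number of receptor genes in each family with at least 1 peak in the regulatory domain (dark) and with none (light). Dopamine receptors had a peak in 3 of 5 genes, and GABA-A receptors in 0 of 15.

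Closer to the genes, the receptor genes stood near the background of all genes. A peak lay within 5 kb of the gene start in 1 receptor gene (1.25%), against 2.36% of all genes. Within 100 kb it was 17 receptor genes (21.2%) against 25.8% of all genes, wherever the domain border fell. A peak midpoint inside the gene body was found for 4 receptor genes (5.0%), against 5.04% of all genes.

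Receptor gene domains were long and poor in GC. The median domain was 233 kb and 42.2% GC, against 89.4 kb and 44.0% for all genes. Long domains hold more sequence, and the share with a peak was therefore read within classes of domain length. Under 100 kb, 2 of 22 receptor genes had a peak (9.09%), against 7.4% of all genes of that class. Between 100 and 500 kb it was 8 of 26 (30.8%) against 23.8%. From 500 kb upwards it was 6 of 32 (18.8%) against 37.7%. In the longest class the receptor genes thus had a peak less often than the background, by the point values. Of the 18 receptor domains over 1 Mb, 3 held a peak (*Gria1*, *Grin3a* and *Htr7*), whereas 37.9% of the 981 such domains in the genome did. Among those without a peak, *Gria3*, *Glra2* and *Htr2c* are on the X chromosome, where only 4.29% of all genes had one. The difference was not tested.

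GC content was looked at in the same way, in 3 classes of 7460 genes each, a split made after the data had been seen. Below 42.0% GC, 5 of 39 receptor genes had a peak (12.8%), against 12.4% of all genes there. Between 42.0 and 46.2% it was 5 of 21 (23.8%) against 20.3%. Above 46.2% it was 6 of 20 (30.0%) against 16.5%. By the share of genes, the receptor genes were closest to the background in the class poorest in GC, which held the most of them. This does not hold for peaks per Mb, where that class stood at 0.165 against 0.583.

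**Figure D2:**
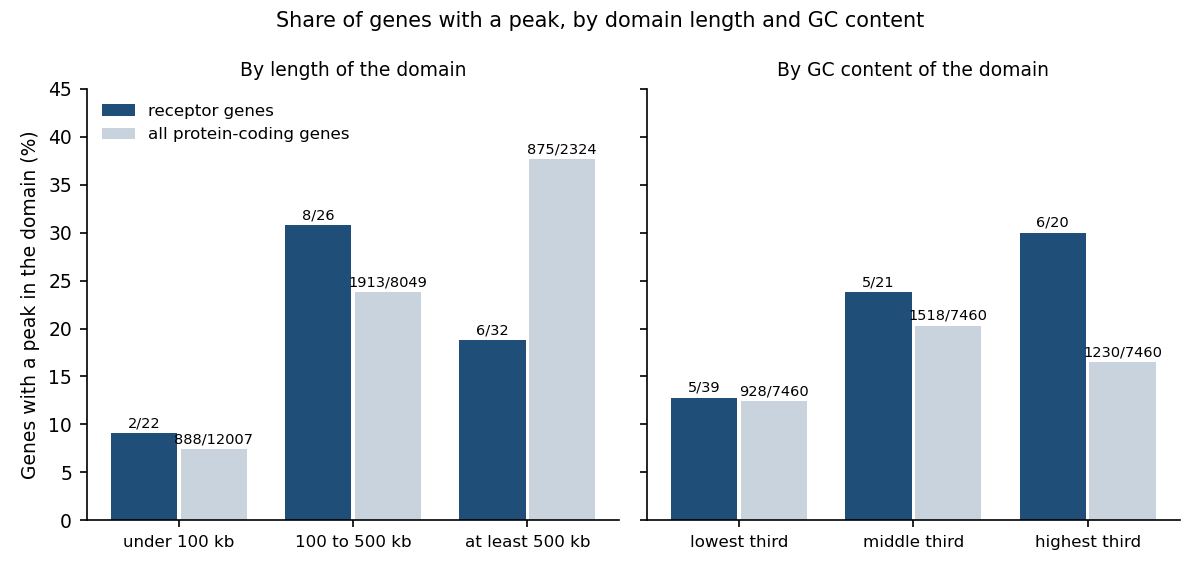
Percent of genes with a peak in the regulatory domain for receptor genes (dark) and all protein-coding genes (light), in 3 classes of domain length (left) and 3 of domain GC content (right), with the counts above each bar. The receptor genes were below the background where domains were at least 500 kb long, at 18.8 against 37.7%.

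Counted against sequence instead of genes, the receptor neighbourhoods were thinly occupied. Their domains covered 39.8 Mb together and held 0.452 peaks per Mb (0.268 to 0.715), whereas the domains of all genes held 1.13 (1.08 to 1.17). The intervals did not overlap, but they did once domains were held to 100 kb on each side: there the receptors had 1.12 peaks per Mb (0.58 to 1.96) and all genes 1.48. The gap lay in the long domains: from 500 kb upwards the density was 0.209 peaks per Mb for receptor genes and 0.72 for all genes. Under 100 kb it was 1.63 against 1.85, and between 100 and 500 kb it was 1.63 against 1.51. Within each GC class the receptor density was the lower one, with 0.165 against 0.583 peaks per Mb in the class poorest in GC, 0.933 against 1.56 in the middle class and 2.21 against 2.56 in the richest.

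**Figure D3:**
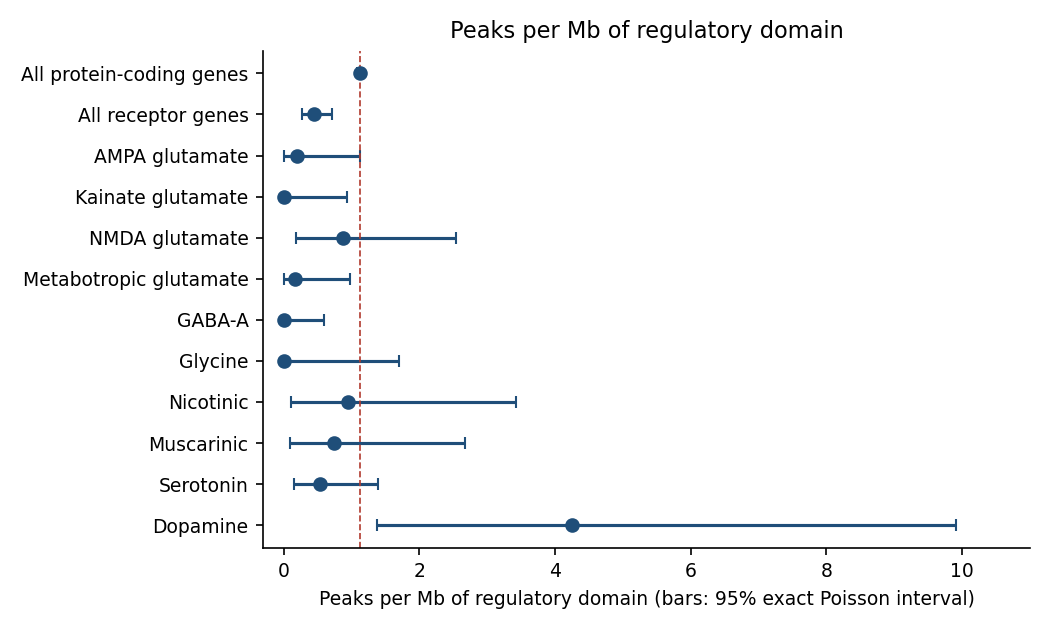
Peaks per Mb of regulatory domain for all protein-coding genes, all receptor genes and each receptor family, with 95% exact Poisson intervals, and the level of all genes as a dashed line. Dopamine receptors sit above the line at 4.25 peaks per Mb, and kainate, GABA-A and glycine receptors are at 0.

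Among the ionotropic glutamate receptors, 4 of 16 genes had a peak. AMPA receptors carry most fast excitatory current, and *Gria1* was the 1 of 4 AMPA subunit genes with a peak. *Gria1* (ENSMUSG00000020524) encodes the GluA1 subunit. Its peak, at chr11:56999847-57000457, had a score of 12.79 and lay in intron 3 of 15, 175 kb downstream of the gene start. The kainate receptor genes *Grik1* to *Grik5* had no peak in 3.96 Mb of domain, and the interval of that 0 reached up to 0.932 peaks per Mb.

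NMDA receptors, calcium-permeable channels involved in synaptic plasticity, had a peak for 3 of 7 genes. *Grin3a* (ENSMUSG00000039579), which encodes a modulatory subunit, had a peak of 312 bp and score 8.84 at chr4:49848623-49848934, in intron 1 of 8 and 9.84 kb from the gene start. *Grin2c*, a subunit gene best known from the cerebellum, had a peak 6.16 kb upstream, with a score of 6.63. It lay in intron 2 of 11 of *Fdxr*, whose own start was nearer, at 3648 bp. *Grin2b*, a subunit gene prominent in the embryonic brain, was tied to its peak only by the reach of the domain: that peak was 804 kb downstream, in intron 1 of 4 of *Emp1*, and 6349 bp from the *Emp1* start. Another peak lay nearer to *Grin2b*, at 291 kb, but outside its domain. *Grin1*, which encodes the subunit shared by NMDA receptors, had its nearest peak 437 kb away.

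Metabotropic glutamate receptors had a peak for 1 of 8 genes. *Grm7*, with the longest domain possible under the rule (2000 kb), had none.

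The *Grin3a* and *Gria1* peaks had a sequence feature in common that the selection did not use. Both held runs of the trinucleotide ATC repeated in tandem, and so did 1 of the 2 *Drd1a* peaks described below. These stretches are shown to make the repeat visible, as the plus strand of mm9 and with every run of at least 12 bases in capitals. They lie at chr4:49848713-49848790 (*Grin3a*), chr11:57000222-57000279 (*Gria1*) and chr13:54090996-54091192 (*Drd1a*).
Grin3a: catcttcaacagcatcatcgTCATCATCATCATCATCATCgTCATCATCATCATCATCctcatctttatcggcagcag
Gria1: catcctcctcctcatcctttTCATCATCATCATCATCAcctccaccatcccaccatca
Drd1a: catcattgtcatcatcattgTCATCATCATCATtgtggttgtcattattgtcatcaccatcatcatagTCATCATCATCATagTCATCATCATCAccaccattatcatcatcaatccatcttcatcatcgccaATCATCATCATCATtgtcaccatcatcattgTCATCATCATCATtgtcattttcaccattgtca

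*Grin3a* had 2 such runs, the longest of 20 bases, and *Gria1* had 1 run of 18 bases. *Drd1a* had 5 runs, which added up to 65 of the 382 bp of its peak. The minimum of 12 bases was set after these sequences had been seen. Over whole peaks, 3 of the 18 receptor peaks held a run (16.7%, 5.84 to 39.2%), against 177 of all 2849 peaks (6.21%). In the central 200 bp it was 2 of 18 (11.1%) against 122 of 2849 (4.28%). Windows of 200 bp placed 1 kb outside each end of the peaks held a run in only 8 of 5698 cases (0.14%), and in 0 of 36 around the receptor peaks. The repeat was therefore a feature of the peak list as a whole, shared by some receptor peaks. The *Paupar* transcript itself, placed at chr2:105498019-105501535 by the primers used to clone it in full, held no run of 12 bases, and its longest was 8. What the repeat contributed to the pull-down was not tested. Only reads mapped to a single place had been kept, which limits what could be seen in longer repeats.

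The genes of inhibitory receptor channels had no peak in their domains. GABA-A receptors carry most fast inhibition in the brain, glycine receptors most of that in the spinal cord. None of the 15 GABA-A genes and none of the 4 glycine receptor genes had a peak in 8.39 Mb of domain, and the interval of that 0 reached up to 0.439 peaks per Mb. These domains are poor in GC, at a median of 38.6%, and in the class of all genes poorest in GC the density was 0.583, against 1.13 over all genes. The limit of 0.439 for the 19 genes together lies below the value of that class. For the GABA-A genes alone the interval reached up to 0.593, and for the glycine receptor genes alone up to 1.7. Both take that value in. The limit for the 19 genes does not allow for the joining of 2 families that each had 0 peaks. *Gabra3*, *Glra2* and *Glra4* are on the X chromosome, where the density over all genes was 0.198. The parts played by GC content and by the X chromosome were not tested. As a share, the interval of 0 in 19 genes reached up to 16.8%, above both the background of 16.4% and the 12.4% of the class poorest in GC. The median distance from a GABA-A gene start to any peak was 1370 kb, against 463 kb over all receptor genes and 277 kb over all genes. The nearest was *Gabrr2*, at 657 kb, and the farthest *Gabrg1*, at 2720 kb. These genes lie in clusters, so that neighbouring members shared the same nearest peak, as did *Gabra2*, *Gabra4*, *Gabrb1* and *Gabrg1* on chromosome 5. The 15 genes are thus fewer than 15 separate observations.

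Nicotinic acetylcholine receptors had a peak for 2 of 13 genes. *Chrna4* encodes the α subunit of a common brain form. Its peak lay 79.1 kb upstream, with a score of 10.11, and nearer to the start of another gene. *Chrna7* encodes the subunit that forms channels on its own. Its peak was the narrowest of the 18, at 208 bp, and lay 110 kb upstream between genes, with a score of 7.41. The cluster of *Chrna3*, *Chrna5* and *Chrnb4* on chromosome 9 had its nearest peak 1030 kb from the *Chrnb4* start.

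Muscarinic acetylcholine receptors had a peak for 2 of 5 genes, and 1 of these had the highest score of all receptor peaks. *Chrm4* (ENSMUSG00000040495) encodes the M4 receptor, which lowers cyclic AMP and is known for its role in the striatum. The *Chrm4* peak, at chr2:91763267-91764108, was 842 bp wide, had a score of 38.24 and ranked 139 in the list of 2849. Its midpoint lay 1342 bp downstream of the gene start, in the only intron of the gene. It was the one receptor peak within 5 kb of a receptor gene start. The next gene whose domain it fell in, *Mdk*, started 8766 bp away. *Paupar* is transcribed from the same chromosome, 13.7 Mb away, and 10 of the 268 peaks on chromosome 2 scored higher than this one. *Chrm1*, which encodes the M1 receptor of cortex and hippocampus, had a peak of 1147 bp and score 10.56 at 30.5 kb upstream, nearer to the start of *Slc22a6* (15553 bp).

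The *Chrm4* peak was the richest in GC of the 18, at 58.8%, and held 47 CpG dinucleotides, or 5.58 per 100 bp. The median was 0.887 per 100 bp over the receptor peaks and 0.977 over all peaks. The 300 bases of this peak with the most CpG, chr2:91763794-91764093, are shown with each CG in capitals, because this peak held the most CpG per base of the 18.
Chrm4: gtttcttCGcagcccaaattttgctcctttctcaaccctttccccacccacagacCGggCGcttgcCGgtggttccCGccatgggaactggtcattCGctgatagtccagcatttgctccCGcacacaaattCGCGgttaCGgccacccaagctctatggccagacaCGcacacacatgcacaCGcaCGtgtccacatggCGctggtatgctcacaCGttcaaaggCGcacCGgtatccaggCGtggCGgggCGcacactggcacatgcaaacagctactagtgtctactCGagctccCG

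Serotonin receptors had a peak for 4 of 14 genes, all of them coupled to G proteins. The *Htr2b* peak was the second highest of the receptor peaks, with a score of 32.05 and a rank of 227, at chr1:88035107-88035769. It lay 26.9 kb upstream of *Htr2b*, which is known from heart development and the gut, inside the proteasome subunit gene *Psmd1* and 15917 bp from the start of *Armc9*. *Htr6*, a receptor that raises cyclic AMP, had a peak of score 10.77 at 50.9 kb downstream, in intron 13 of 16 of *Tmco4*. *Htr7*, which also raises cyclic AMP, had its peak 458 kb downstream between genes, with a score of 10.43. *Htr5b* had a peak of score 10.38 at 87.4 kb, in intron 3 of 23 of *Ccdc93*. The channel subunit genes *Htr3a* and *Htr3b* were both far from any peak, the nearest being 991 kb from *Htr3b*.

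Dopamine receptors had the highest share and density of the 10 families. A peak lay in the domains of 3 of 5 genes, and the 5 peaks in 1.18 Mb gave 4.25 per Mb (1.38 to 9.92), against 1.13 over all genes. This family was singled out after its values were seen, as the highest of 10, and its interval does not allow for that. *Drd1a*, which encodes the D1 receptor of striatal output neurons, had a peak of score 17.92 at chr13:54090917-54091298, 59.9 kb downstream and between genes. A weaker one of score 6.93 lay 285 kb downstream, nearer to the start of *Gm5449* (244827 bp). *Drd5* encodes the other D1-type receptor. Its 2 peaks were both inside the urate transporter gene *Slc2a9*, at 46.4 kb with a score of 9.72 and at 168 kb with a score of 31.15. The latter, chr5:38877302-38880780, was the widest of the receptor peaks at 3479 bp, and its nearest gene start was that of *Slc2a9*, 15341 bp away. *Drd3*, a D2-type receptor gene of limbic regions, had a peak of 1038 bp and score 17.37 at chr16:43708442-43709479. It lay 53.4 kb upstream, between *Drd3* and *Tigit*, and the *Tigit* start was nearer at 44664 bp. *Drd2* and *Drd4* had no peak in their domains, although the nearest peak to *Drd4* was only 82.7 kb away, in a short domain of 38.6 kb.

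Of the 18 receptor peaks, 12 lay downstream and 6 upstream of the receptor gene start, at a median distance of 62.0 kb, against 64.9 kb over all pairs of a peak and a gene. Only 1 was within 5 kb (5.56%), against 9.89% of all 5257 pairs. Between 5 and 50 kb there were 5 (27.8%), against 33.5% of all pairs. Between 50 and 100 kb there were 6 (33.3%), against 17.7% of all pairs, and beyond 100 kb another 6 (33.3%), against 38.9%. The peaks inside the receptor's own gene, among them those of *Chrm4*, *Grin3a* and *Gria1*, were all intronic and made 4 of 18 (22.2%, 9.0 to 45.2%), against 21.6% of all pairs. Counted over the peaks nearest to a receptor gene start only, it was 44.4% of 9, against 33.1% of all 2849 peaks by the same assignment. Another 8 were inside another protein-coding gene and 6 outside every one. The nearest gene start was that of the receptor for 9 peaks and that of another gene for the other 9. For these splits, and for that into downstream and upstream, no share over all peaks is given. They describe the 18 peaks only and show no difference from the list. Domains of neighbouring genes overlap by the rule used here, and over all genes 2838 peaks made 5257 pairs. Each of the 18 also lay in the domain of a neighbouring gene, which follows largely from that rule. None can thus be tied to a receptor gene alone from its position.

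**Figure D4:**
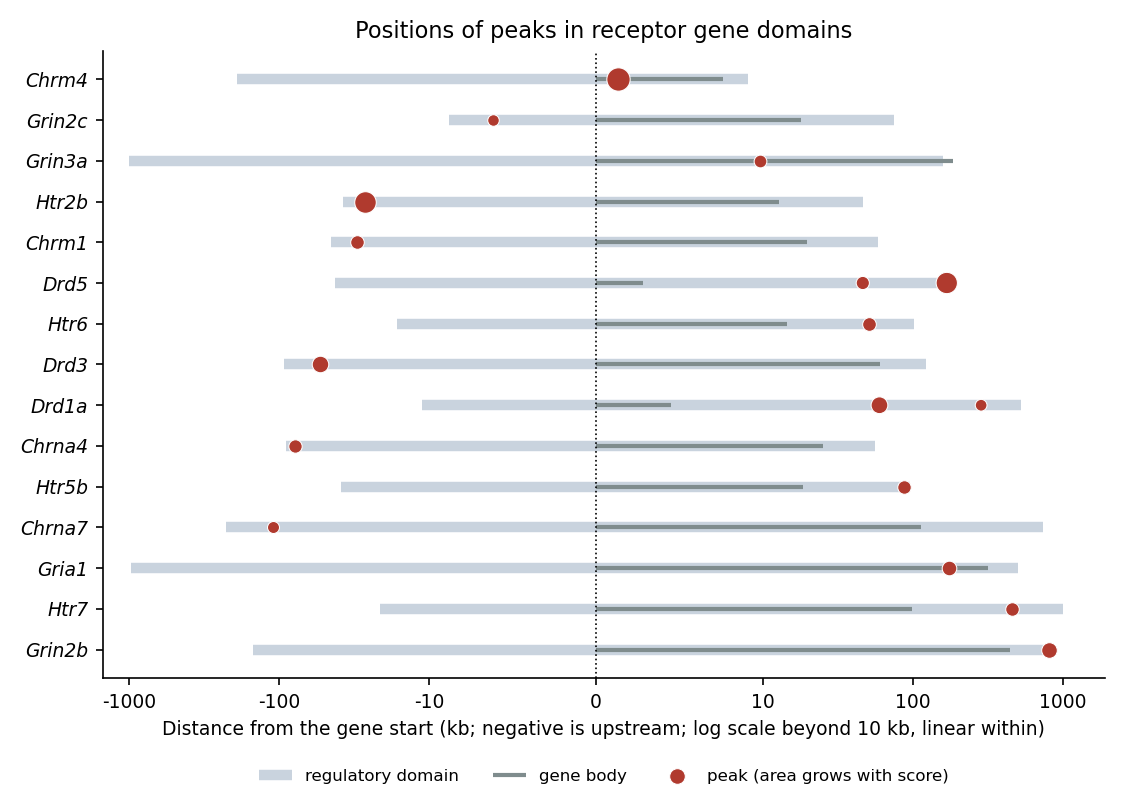
Distance of 17 of the 18 peaks from the receptor gene start in kb, with downstream to the right, on an axis that is linear within 10 kb and logarithmic beyond; light bars are regulatory domains, dark bars gene bodies, and the area of a point grows with the score. Genes are ordered by their nearest peak, from *Chrm4* at 1342 bp to *Grin2b* at 804 kb.

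Of the 18 receptor peaks, 0 had another peak within 10 kb, with an interval of up to 17.6% that takes in the 12.5% of all peaks. The median distance to the next peak was 314 kb against 142 kb. In score they were ordinary. The median score was 10.66 against 12.69 for all peaks, 13 of 18 reached 10 (72.2% against 70.7%), and 3 of 18 ranked among the first 712 of the list (16.7% against 25.0%): *Chrm4*, *Htr2b* and the wide peak of *Drd5*. The median width was 626 bp against 556 bp, and the median GC content 46.7% against 48.1%.

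**Figure D5:**
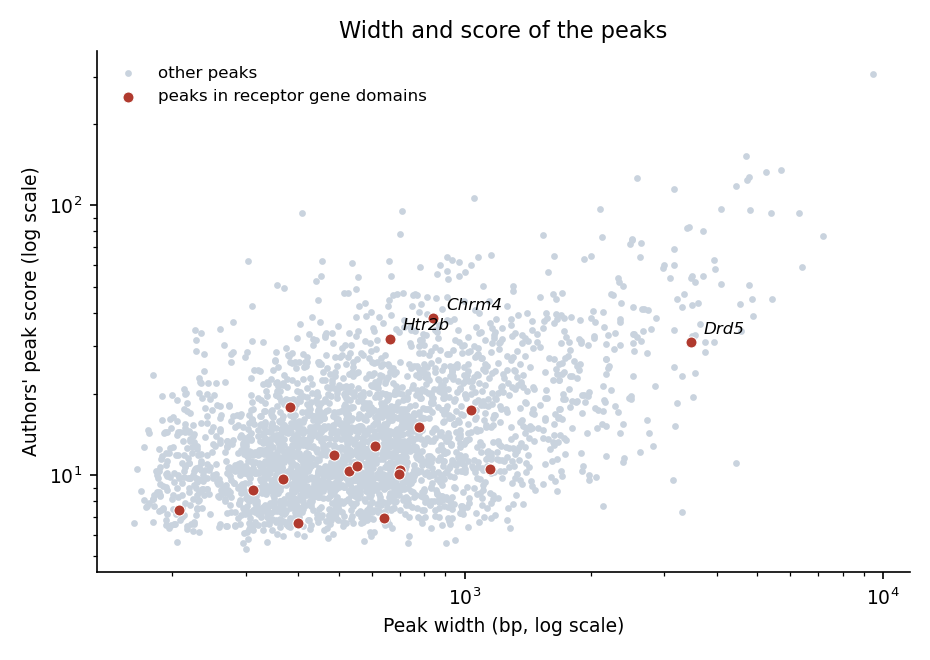
Width in bp and the authors' score of all 2849 peaks, both on log scales, with the 18 receptor peaks in red. Most receptor peaks lie within the main cloud, and *Chrm4* (38.24), *Htr2b* (32.05) and *Drd5* (31.15) have the highest scores among them.

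Because the pull-down relied on base pairing with oligonucleotides, the peaks were searched for stretches identical to them. A match of at least 10 bases to 1 of the 4 *Paupar* oligonucleotides, on either strand, was present in 5 of 18 receptor peaks (27.8%, 12.5 to 50.9%). It was present in 700 of all 2849 peaks (24.6%), a value within the interval of the receptor peaks. With at least 9 bases it was 44.4% of receptor peaks against 58.5% of all peaks. Taken singly, the 4 oligonucleotides matched between 5.55% (PauparCHART2067) and 8.21% (PauparCHART254) of all peaks. The single LacZ oligonucleotide matched none of the receptor peaks and 8 of all peaks (0.281%). Peaks had been called against the LacZ pull-down, so sites caught through LacZ matches would tend to be missing from the list. Its low share is therefore no measure of chance matching, and no match share outside the peaks is given. The 5 receptor peaks were those of *Chrm4*, *Htr2b*, *Htr5b*, *Htr6* and *Drd3*, and they included both peaks of highest score. The part played by these matches in the capture of each site was not tested. The stretches are shown on the plus strand of mm9 with the matching bases in capitals, at chr2:91763478-91763527 (*Chrm4*), chr1:88035248-88035297 (*Htr2b*), chr1:123337891-123337940 (*Htr5b*), chr4:138580486-138580535 (*Htr6*) and chr16:43709043-43709093 (*Drd3*).
Chrm4: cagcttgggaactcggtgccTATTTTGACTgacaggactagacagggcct
Htr2b: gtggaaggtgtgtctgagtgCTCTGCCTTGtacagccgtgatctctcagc
Htr5b: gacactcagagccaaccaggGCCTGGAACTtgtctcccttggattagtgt
Htr6: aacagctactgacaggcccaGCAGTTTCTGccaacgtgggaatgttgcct
Drd3: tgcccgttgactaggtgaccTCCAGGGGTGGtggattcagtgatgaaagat

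The oligonucleotides, of 24 bases each, are shown for comparison, with the bases found in a receptor peak in capitals.
PauparCHART254: ggcttaagtCCACCCCTGGAttcg
PauparCHART428: GCCTGGAACTagatCAAGGCAGAG
PauparCHART2041: ctctCAGAAACTGCgatacaaaag
PauparCHART2067: gaggcctAGTCAAAATAtctccac

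PauparCHART428 matched the *Htr5b* peak with its first 10 bases and the *Htr2b* peak with its last 10, on opposite strands of the genome. PauparCHART2041 matched at *Htr6* and PauparCHART2067 at *Chrm4*, with 10 bases each. PauparCHART254 gave the longest match, 11 bases at *Drd3*. That match holds the letters CACCCC, a motif common in the list as a whole, but lies just outside the central 200 bp used for the motif counts.

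Short motifs were counted in the central 200 bp of each peak, on both strands. CACCCC, present in 25.8% of all peaks and 12.8% of the outer windows, was found in 2 of 18 receptor peaks (11.1%), those of *Drd5* and *Htr6*. ATCATC was found in 5 (27.8%), against 13.8% of all peaks and 7.3% of the outer windows; they were those of *Chrm1*, *Drd1a*, *Gria1*, *Grin3a* and *Htr6*, and 3 of these genes are the ones with the runs shown above. The E-box CAGCTG was found in 5 (27.8%), against 10.8% of all peaks and 9.69% of the outer windows. A PAX6 paired-domain site with at most 2 mismatches was found in 4 (22.2%), those of *Chrna4*, *Drd1a*, *Drd3* and *Grin2c*. All peaks and outer windows had this loose site at 9.72 and 9.2%, so it hardly told peaks from their surroundings. The homeodomain core TAATTA was in 0 receptor peaks (4.11% of all peaks), and the Sox core ACAAAG in 1, at *Htr7* (14.6% of all peaks). Neither TTCAGCACC nor GGACAGNGC, both parts of the site of the neuronal gene repressor REST, was in any receptor peak, and in all peaks they were at 0.562 and 1.16%. With 18 peaks, each count rests on very few sites, and some moved with the window: in the central 400 bp, ACAAAG was in 4 receptor peaks (22.2%, against 27.7% of all peaks), CACCCC also in 4 (22.2% against 40.9%) and TAATTA in 1 (5.56% against 7.41%).

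Some genes without a peak lay just outside the domain rule. *Chrm5* was nearest, with a peak of score 16.65 at 30.6 kb from its start, beyond the border of a domain of only 32.0 kb. *Grin3b* followed at 48.9 kb, *Chrna10* at 74.8 kb, *Drd4* at 82.7 kb and *Chrna9* at 88.5 kb. At the other end, *Gria3*, on the X chromosome, was 4280 kb from any peak. None of the 5 receptor genes on the X chromosome had a peak, and only 4.29% of all X-linked genes did.

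The genes that act with the receptors were counted by the same rule, with 16.4% of genes and 1.13 peaks per Mb as the background of all genes. Among receptor subunit genes not reached by the symbol rule, such as *Gabrd*, *Glrb*, *Grid1* and *Gabbr1*, 0 of 12 had a peak. Of auxiliary subunits and synaptic scaffolds it was 14 of 35 (40.0%, 25.6 to 56.4%). Their density was 1.67 peaks per Mb (1.03 to 2.55), an interval that takes in the 1.13 of all genes. *Homer3*, a scaffold of metabotropic glutamate receptors, had a peak of score 9.33 at 0.312 kb upstream of its start, and *Shank3*, a scaffold of the postsynaptic density, one of score 11.7 at 1.16 kb upstream. Of the enzymes of transmitter synthesis and breakdown it was 7 of 16 (43.8%, 23.1 to 66.8%), among them *Ache*, which breaks down acetylcholine, with a peak of score 34.08 at 0.236 kb upstream, and *Chat*, which makes it, with a peak of score 62.21 at 16.4 kb upstream. Of transmitter transporters it was 2 of 19 (10.5%), *Slc18a1* and *Slc32a1*. The median domain was 197 kb for auxiliary subunits and scaffolds, 141 kb for the enzymes and 147 kb for the transporters. Over all genes it was 89.4 kb, and of all genes with domains of 100 to 500 kb, 23.8% had a peak.

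Ion channel genes outside the transmitter receptors served for comparison: voltage-gated sodium channels, potassium channels of every kind (voltage-gated, inward-rectifier and leak channels with their regulators, by the symbol Kcn) and the pore subunits of calcium channels. With each symbol counted once, sodium channels had a peak for 7 of 13 genes (53.8%, 29.1 to 76.8%), potassium channels for 31 of 94 (33.0%, 24.3 to 43.0%) and calcium channels for 4 of 10 (40.0%, 16.8 to 68.7%), against 20.0% (12.7 to 30.0%) for the receptors and 16.4% for all genes. The interval of the receptors overlapped each of the other 3. In peaks per Mb the receptors had 0.452 (0.268 to 0.715), potassium channels 1.17 (0.857 to 1.57), sodium channels 2.61 (1.05 to 5.39) and calcium channels 5.3 (2.82 to 9.07). Here the receptor interval lay below the other 3, with domains of full reach. With domains of at most 100 kb on each side the receptors had 1.12 peaks per Mb (0.58 to 1.96). No such value is given for the channels, so the order under that setting is not known. The receptors had the longest and most GC-poor domains of these groups. The median domain was 233 kb for receptors, 210 kb for potassium, 215 kb for sodium and 106 kb for calcium channels. The median GC content was 42.2%, 45.7%, 47.4% and 48.2% in the same order. The share of the density differences that goes with length and GC content was not tested.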

How the data were processed

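Reads were processed by the authors: paired-end reads were mapped to mm9 with bowtie, keeping reads with a single place, and MACS2 called peaks for each *Paupar* pull-down against its LacZ control and against input DNA. Calls with a −log10 q above 5 were kept, and peaks found in both comparisons were deposited. The file does not name the deposited score, all of whose values are above this limit, the lowest being 5.34. How the calls of both pull-downs were joined is not given in the sources used here. The deposited columns are positions, a running number and this score. There were 0 columns of values per sample, so groups could not be compared.

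From these, domains were built from the gene starts of GENCODE protein-coding genes on NCBIM37 (the mm9 assembly) after the rule in the study's methods, and peaks were placed by midpoint with Python 3.11.15, pandas 2.3.3 and pysam 0.24.0 (sequence by samtools 1.23.1). The placement was checked on made data against a slower calculation. No test was run over the chosen genes: counts stand beside those of all genes. Capture oligonucleotide and primer sequences came from the study's supplement. Described by name were members with a peak within 5 kb or in the gene body, those with 3 or more peaks, those of the 10 highest scores and the nearest of each family. Some further members, among them *Chrna7*, *Htr5b* and *Htr7*, were named outside these criteria. The members, lists and motifs were chosen with earlier results of these data known. Alternatives covered the score limit, domain reach, assignment, overlap, merging, gene starts, membership, match length and window. A few genes are not reported here by name.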

Additional observations from a re-analysis of the deposited data

How the results depend on the processing

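Of 50 values recomputed under an alternative, 46 moved by less than the counting error or stayed within 1.5 times of the count. This is a loose measure. Receptor values were identical with reach taken from the core edge, with an overlap of 1 bp and with peaks within 10 kb merged. With 18 peaks the counting error is wide, and it took in the change of ACAAAG from 5.56 to 22.2%. The 4 values that moved more came from 3 alternatives. With each peak given to the nearest gene start only, 9 receptor genes had a peak (11.2%, against 9.95% of all genes), with 9 peaks; 44.4% of these lay in the receptor gene body, a value within the interval of 9.0 to 45.2%, against 33.1% of all peaks. With domains of at most 100 kb on each side, the density was 1.12 peaks per Mb (0.58 to 1.96) against 1.48 for all genes, so that the interval no longer lay below the value of all genes. With a match of at least 11 bases, 5.56% of receptor peaks matched a *Paupar* oligonucleotide, against 7.37% of all peaks. Among the 46, with only scores of at least 10, 13 receptor genes (16.2%, against 12.6% of all genes) had 13 peaks, or 0.327 per Mb against 0.797. In the central 400 bp, the share of receptor peaks with a motif was 38.9% for ATCATC (21.4% of all peaks), 33.3% for CAGCTG (19.4%) and 33.3% for the PAX6 site (18.8%). Outer windows of that width around the receptor peaks held them at 5.56%, 8.33% and 25.0%, in the same order. Around all peaks it was 14.1%, 17.3% and 18.5%. With the Htra genes, 17 of 84 had a peak, with 21 peaks. Density over nearest starts was not run, since that rule has no domain. No paired analysis was possible because the peak list holds no value per library, and for the same reason no replicate could be left out. Depth was unknown, so a gene without a peak may hold one below the authors' limits.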

Other observations

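*Htra4*, a serine peptidase gene taken by the symbol rule but not a receptor, had 3 peaks, at 18.2, 32.2 and 39.1 kb upstream, with scores of 16.17, 11.07 and 27.93. All 3 lay in introns of the neighbouring gene *Plekha2*. *Htra1*, *Htra2* and *Htra3* had none.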
